A study of Chlorocebus sabaeus with 45 samples.

Results

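Fc receptors bind the constant region of antibodies and link antibody-coated particles to white blood cells. The common gamma chain, encoded by FCER1G, carries an activation motif that Src-family kinases such as LYN and FGR phosphorylate, and the kinase SYK then docks on the phosphorylated motif. SYK passes the signal to phospholipase C gamma 2 (PLCG2), which releases calcium and activates protein kinase C, and to the VAV proteins, exchange factors that switch on GTPases and drive the actin movements of phagocytosis. The lipid phosphatase SHIP1, encoded by INPP5D, removes a phosphate from the membrane lipid made by PI3-kinase and restrains this signaling. In blood these genes serve neutrophils, monocytes, NK cells, B cells, basophils and platelets to different degrees, and SYK, LYN and PLCG2 also work behind the B cell receptor.

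The genes described here are the gamma chain gene FCER1G, the kinase genes SYK, LYN and FGR, the exchange factor genes VAV1, VAV2 and VAV3, the phospholipase gene PLCG2 and the phosphatase gene INPP5D. They were chosen by symbol and are 9 of the 33994 genes in the tables. The tables give symbols without coordinates, so no genomic positions are stated. All 9 passed the filter on low values that left 18753 genes for testing.

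Whole blood came from 15 juvenile male vervet monkeys (Chlorocebus sabaeus) trapped on the Caribbean island of St. Kitts, each sampled on day 0, day 3 and day 14 of exposure to relocation and single housing, which gave 45 libraries. Day 0 blood was drawn at the trapping site under ketamine and xylazine, whereas blood on days 3 and 14 was drawn in the primate facility under dexmedetomidine and midazolam. No group stayed in the wild or was sampled again without relocation, so stress, place, sedative and time since capture cannot be told apart in any comparison with day 0. The sample labels place the last sampling on day 14, while the design text of the series places it on day 15. One paragraph of the study's methods also names a different second day for the RNA tubes, and the days of the labels are used here.

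The libraries held 13216276 to 31469333 fragments on genes. Values below are fragments per kilobase of gene, scaled to the library's total (FPKM), as deposited, which can be compared between genes because they are divided by gene length. Tests used log2 values after TMM scaling (trimmed mean of M values), which sets the typical gene to about no change, and a gene was called at an adjusted p under 0.05 (limma, Benjamini-Hochberg over all tested genes). Without TMM the median log2 fold change over all tested genes on day 14 was −0.36 against day 0 and −0.35 against day 3, where both were −0.02 with it. In bulk blood, fewer cells of a type and less RNA per cell cannot be told apart. The day 0 libraries of animals 7, 11 and 15 stood apart, with summed FPKM of 12 neutrophil markers of 20300, 34736 and 32982, against 1756 to 10972 in the other 12 animals, and values without these 3 animals, from the other 12, are given beside the results they bear on.

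On day 14 vs. day 0, 5 of the 9 genes were down-regulated and none was up-regulated. They were VAV3, LYN, SYK, PLCG2 and VAV1. Of all tested genes 36.01% were called in this comparison, 17.3% lower and 18.8% higher. The log2 fold change was below 0 for all 9 genes, with a median of −0.38, against −0.02 over all tested genes, of which 52.3% were below 0. In the other 12 animals it was below 0 for 7 of the 9, with FCER1G and FGR above 0, and the median was −0.37. On day 3 vs. day 0 VAV3 alone was called and was down-regulated, where 12.2% of all genes were called (6.19% lower and 6.04% higher). The median over the 9 genes was −0.11, with 7 of them below 0, as were 48.6% of all tested genes. In the other 12 animals this median was 0.14, with 2 of 9 below 0. On day 14 vs. day 3 INPP5D alone was called, also lower, where 13.3% of all genes were called (5.002% lower and 8.32% higher), and the median was −0.35. These counts come from a fit that does not pair the libraries of an animal. With the animal added to the model, 4 of 9 were called on day 14 vs. day 3, where 23.8% of all genes were. Both comparisons with day 0 share the same day 0 libraries, so they are not separate evidence.

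**Figure D1:**
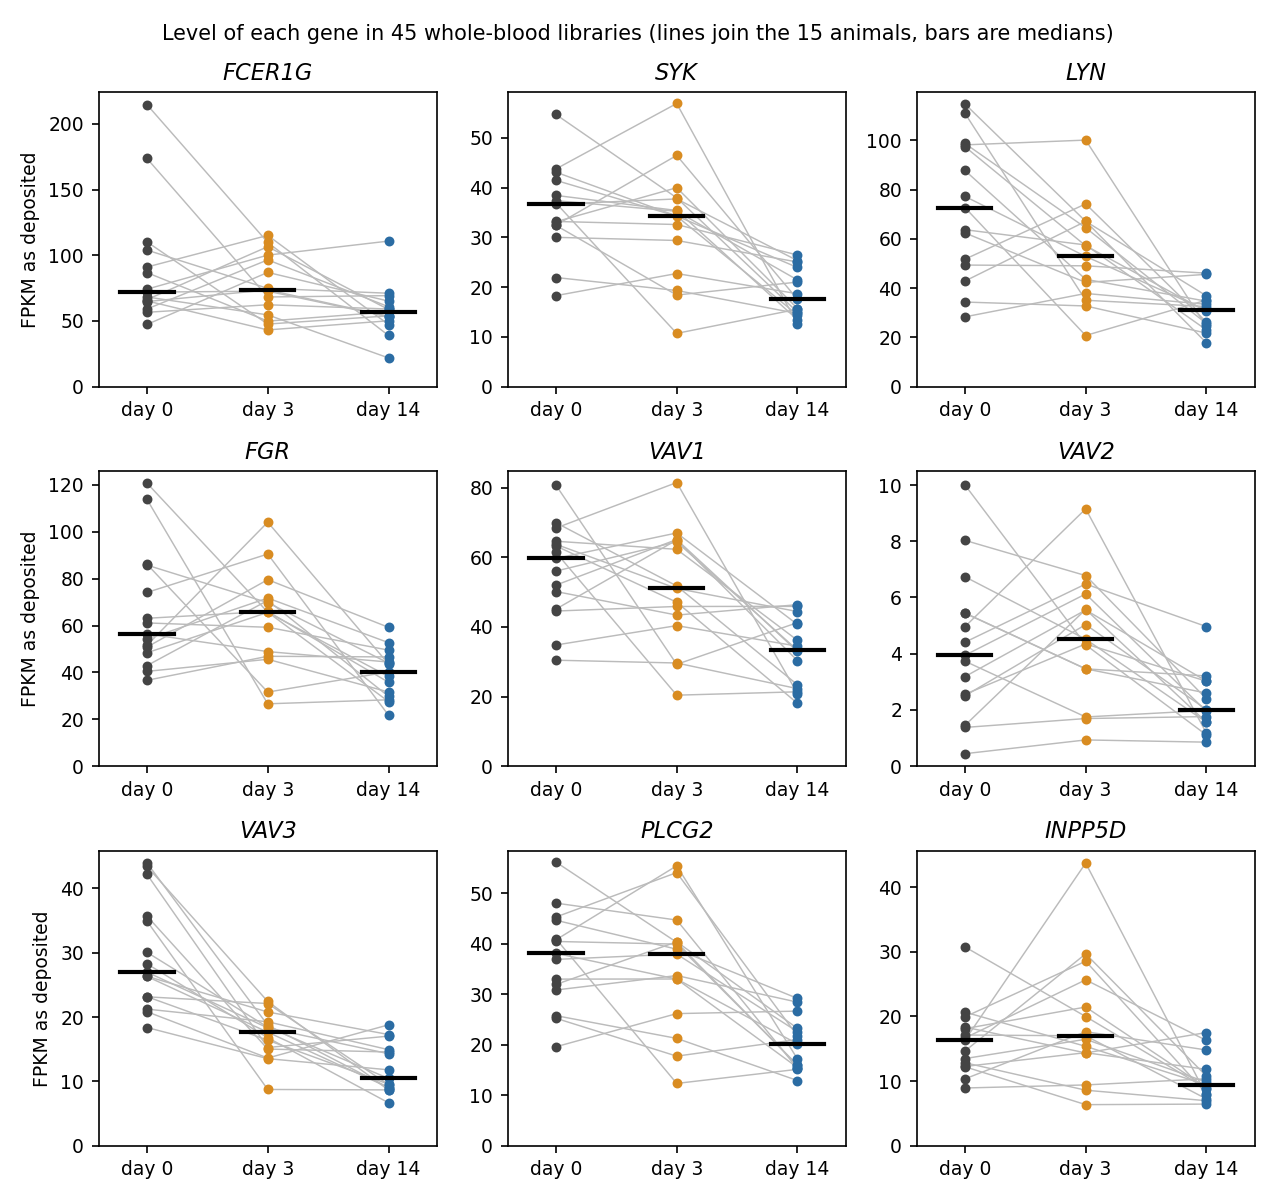
FPKM as deposited of the 9 genes (vertical axes, from 0) on days 0, 3 and 14 (horizontal axes); points are libraries, gray lines join the 3 libraries of an animal and black bars mark medians over 15 animals. In these deposited values VAV3 was lower than on day 0 in all 15 animals on both later days, and every gene had its lowest median on day 14. After TMM scaling VAV3 was lower in 13 animals on day 3 and in 14 on day 14. The scaled medians on days 0, 3 and 14 were 60.8, 71.1 and 71.4 for FCER1G and 44.9, 56.5 and 45.2 for FGR. For the other genes the scaled median was also lowest on day 14.

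The levels spanned a wide range. By median on day 0, LYN and FCER1G stood highest at 72.7 and 71.9 FPKM, followed by VAV1 at 59.7, FGR at 56.4, PLCG2 at 38.1, SYK at 36.7, VAV3 at 27.0, INPP5D at 16.3 and VAV2 at 3.94 FPKM. Neighbors in this order overlapped between animals, apart from VAV2, whose highest day 0 value of 10.003 FPKM lay above only the lowest INPP5D value of 8.93. On day 14 FCER1G stood highest at 56.9, followed by FGR at 40.2, VAV1 at 33.3, LYN at 31.0, PLCG2 at 20.2, SYK at 17.6, VAV3 at 10.5, INPP5D at 9.42 and VAV2 at 1.98 FPKM. LYN had moved from the first place to the fourth by median, but its day 0 median was close to that of FCER1G. By mean, FCER1G stood above LYN already on day 0, at 90.3 against 72.7 FPKM.

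FCER1G encodes the gamma chain that pairs with the high-affinity IgE receptor and several IgG and IgA receptors. It ranged from 47.3 to 215 FPKM with a median of 71.9 on day 0, from 43.2 to 115 with a median of 73.6 on day 3, and from 21.9 to 111 with a median of 56.9 on day 14. The groups overlapped almost entirely. The top of the day 0 range was held by animals 15 and 11, at 215 and 174 FPKM, and the next animal had 110.2 FPKM. On the TMM scale FCER1G was not called in any of the 3 comparisons, with a log2 fold change of −0.11 ± 0.22 (SE, n = 15; adjusted p = 0.804) on day 3 and −0.15 ± 0.22 (adjusted p = 0.625; 95% interval −0.60 to 0.29) on day 14 vs. day 0. Without animals 7, 11 and 15 both values were above 0, at 0.19 and 0.16, and neither was called.

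Of the kinases, SYK is the one recruited to the phosphorylated gamma chain. SYK lay between 18.3 and 54.7 FPKM (median 36.7) on day 0, between 10.7 and 56.9 (median 34.3) on day 3, and between 12.6 and 26.5 (median 17.6) on day 14. Day 0 and day 3 covered much the same range, while 8 of the 15 day 14 libraries fell below the lowest day 0 value as deposited. After TMM scaling none of them did. SYK was down-regulated on day 14 vs. day 0 by 0.50 ± 0.14 on the log2 scale, a fall of 29.1% (adjusted p = 0.00428, lower in 12 of 15 animals on the TMM scale). Its day 14 vs. day 3 value of −0.36 ± 0.14 (adjusted p = 0.0686) missed the threshold, with lower levels in 13 of 15 animals, and was called when the animal was added to the model as a replicate block, which compares libraries within animals (adjusted p = 0.0381). In the other 12 animals the 2 values were −0.38 and −0.49, both called. With the block and RNA integrity as a covariate they were −0.41 (adjusted p = 0.0746) and −0.32 (adjusted p = 0.140), neither called.

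LYN, a Src-family kinase that both starts receptor signaling and phosphorylates inhibitory receptors, ranged from 28.3 to 115 FPKM (median 72.7) on day 0, from 20.8 to 100.1 (median 52.8) on day 3 and from 17.8 to 46.1 (median 31.0) on day 14. The day 0 values spread widely, and 6 day 14 libraries lay below all of them as deposited, against 3 after TMM scaling. LYN was down-regulated on day 14 vs. day 0, with a log2 fold change of −0.73 ± 0.21 (adjusted p = 0.00519), or a fall of 39.9%, and was lower in 13 of 15 animals. In the other 12 animals it was −0.59 (adjusted p = 0.0223). With the RNA integrity numbers that the study lists as a covariate, the value was −0.62 and missed the threshold (adjusted p = 0.0694, and 0.0676 with the replicate block as well). On day 3 vs. day 0 the value of −0.38 ± 0.21 was not called (adjusted p = 0.248), was lower in 11 animals, and was −0.0858 in the other 12. In 8 animals the TMM-scaled level was lower at each step from day 0 to day 3 to day 14.

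FGR is the Src-family kinase largely restricted to myeloid and NK cells. It ranged from 36.6 to 121 FPKM (median 56.4) on day 0, from 26.6 to 104 (median 65.7) on day 3 and from 21.7 to 59.2 (median 40.2) on day 14. The deposited values were lower on day 14 than on day 0 in 13 of 15 animals, but after TMM scaling in only 7. The log2 fold change on day 14 vs. day 0 was −0.27 ± 0.19 (adjusted p = 0.284; 95% interval −0.65 to 0.12) and limma called FGR in none of the 3 comparisons. An exact sign-flip test within animals called it on day 14 vs. day 3, at −0.25 (adjusted p = 0.0407, lower in 12 of 15 animals), where that test called 23.1% of all genes. Without animals 7, 11 and 15 the limma values were 0.06 against day 0 and −0.33 against day 3, neither called.

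Within a library the ratio of LYN to FGR needs no scaling between libraries. Its median went from 1.14 on day 0 to 0.830 on day 3 and 0.716 on day 14. It ranged from 0.639 to 1.57, from 0.532 to 1.11 and from 0.466 to 1.34 on these days, so that the days overlapped. The ratio was lower than on day 0 in 12 of 15 animals on day 3 and in 12 on day 14, with mean log2 differences of −0.37 ± 0.41 and −0.47 ± 0.67 (SD, n = 15). SYK to FCER1G had medians of 0.431, 0.375 and 0.303 and was lower on day 14 than on day 0 in 11 animals. In the 12 animals other than 7, 11 and 15, LYN to FGR was lower than on day 0 in 11 on either later day, and SYK to FCER1G was lower on day 14 in 10. These ratios are given as descriptions without a test.

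**Figure D2:**
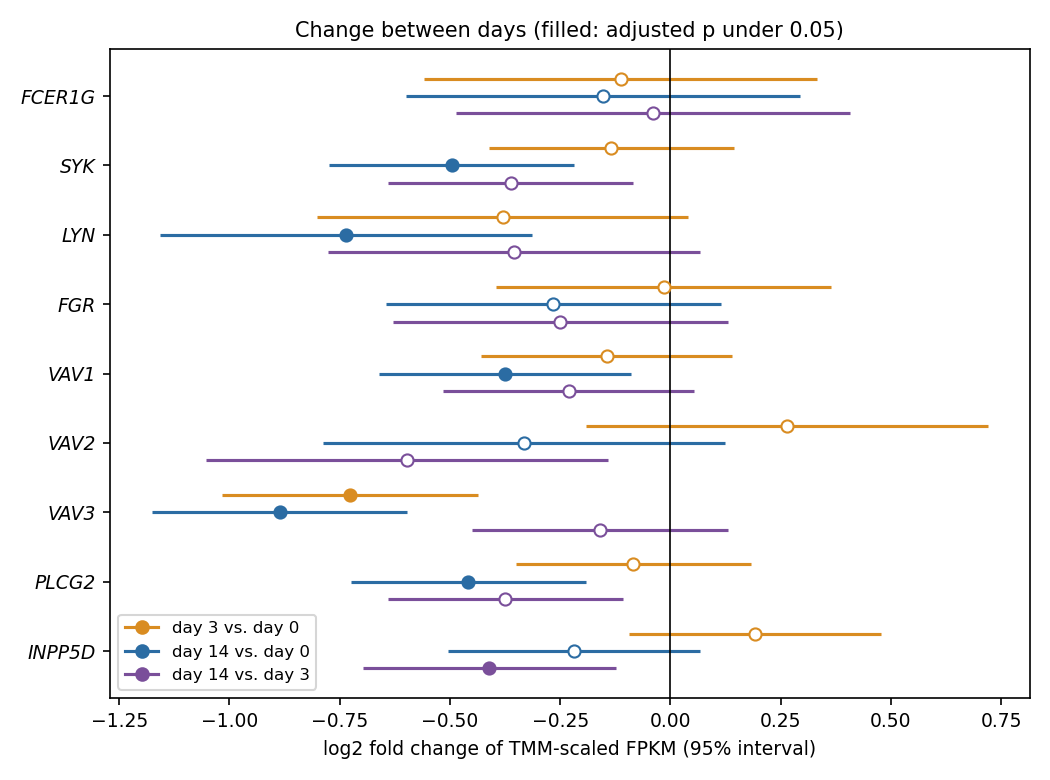
Log2 fold change of TMM-scaled FPKM (horizontal axis) for the 9 genes (vertical axis) in the 3 comparisons; bars are 95% intervals from limma over 15 animals per day, and filled points have an adjusted p under 0.05. VAV3 was called in both comparisons with day 0, while VAV2 and INPP5D had values above 0 on day 3 and below 0 on day 14 vs. day 3.

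The VAV genes encode exchange factors of the same architecture. VAV1 is largely confined to blood cells, whereas VAV2 and VAV3 are more widely expressed. They differed in level and in course. VAV1 ranged from 30.4 to 80.7 FPKM (median 59.7) on day 0, from 20.4 to 81.5 (median 51.1) on day 3 and from 18.1 to 46.4 (median 33.3) on day 14. All days overlapped, with 6 day 14 libraries below the day 0 range as deposited, but none after TMM scaling. VAV1 was down-regulated on day 14 vs. day 0 by 0.38 ± 0.14 on the log2 scale (adjusted p = 0.0337), and the TMM-scaled level was lower in only 8 of 15 animals. Of the 5 calls on day 14 this was the least stable: leaving out any of animals 2, 4, 7, 8, 11, 13, 14 or 15 ended it (adjusted p from 0.0570 to 0.0904), and without animals 7, 11 and 15 together the value was −0.16 (adjusted p = 0.372).

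VAV2 was the lowest of the 9 genes. It ranged from 0.444 to 10.003 FPKM (median 3.94) on day 0, from 0.933 to 9.15 (median 4.52) on day 3 and from 0.854 to 4.96 (median 1.98) on day 14. Between 61 and 1061 fragments stood behind these values. Animal 7 had the lowest level on each of the 3 days. The change from day 3 to day 14 was the largest of the 9 genes in that comparison, at −0.60 ± 0.23 (95% interval −1.05 to −0.14), was lower in 13 of 15 animals and missed the threshold (adjusted p = 0.0673). It was called once the animal entered as a replicate block, at an adjusted p of 0.0132, but not with the block and RNA integrity together (adjusted p = 0.0628). Against day 0 the day 14 value was −0.33 ± 0.23 (adjusted p = 0.261) in all 15 animals, whereas in the 12 other than 7, 11 and 15 it was −0.57 and called (adjusted p = 0.0106). The ratio of VAV2 to VAV1 within a library had medians of 0.0734, 0.0829 and 0.0643 and was lower on day 14 than on day 3 in 14 of 15 animals, and in 11 of the 12 other than 7, 11 and 15.

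VAV3 ranged from 18.4 to 44.0 FPKM (median 27.0) on day 0, from 8.74 to 22.4 (median 17.6) on day 3 and from 6.67 to 18.8 (median 10.5) on day 14. In the deposited values 9 day 3 libraries and 14 day 14 libraries lay below the whole day 0 range. After TMM scaling these counts were 7 and 11. The log2 fold change was −0.73 ± 0.14 on day 3 (adjusted p = 0.00135, lower in 13 of 15 animals after scaling) and −0.89 ± 0.14 on day 14 vs. day 0 (adjusted p = 9.99e-06, lower in 14). Between day 3 and day 14 the value was −0.16 ± 0.14 (adjusted p = 0.477). The spread between animals also differed: the standard deviation of the TMM-scaled log2 level was 0.60 on day 0, 0.19 on day 3 and 0.28 on day 14, whereas that of the deposited log2 values was 0.40, 0.34 and 0.45. Relative to VAV1 in the same library, VAV3 stood at a median ratio of 0.544 on day 0, against 0.378 and 0.406 on days 3 and 14, where it was lower in 14 and in 13 of 15 animals, and in 12 and 10 of the 12 other than 7, 11 and 15. VAV3 was called at both later time points also without animals 7, 11 and 15, at −0.50 (adjusted p = 0.0187) and −0.69 (adjusted p = 1.03e-04).

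**Figure D3:**
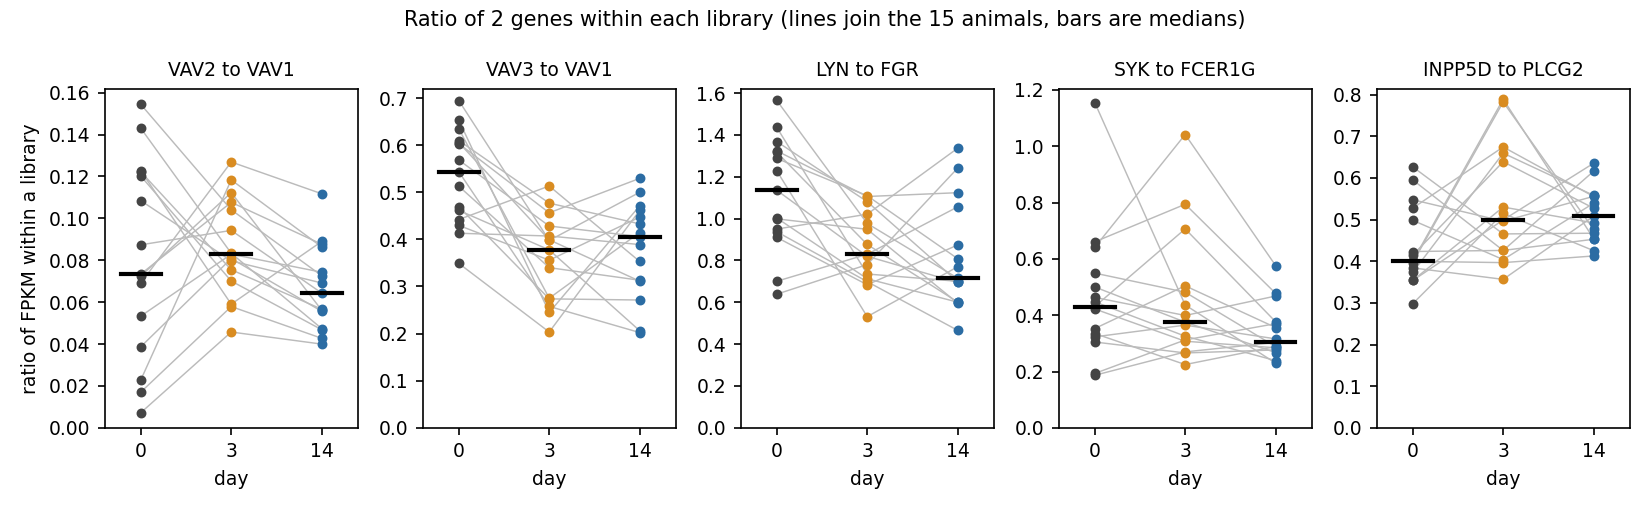
Ratio of the FPKM of 2 genes within each library (vertical axes, from 0) by day (horizontal axes) for the 5 pairs named above each panel; gray lines join the libraries of an animal and black bars mark medians over 15 animals. The VAV3 to VAV1 median was 0.544 on day 0 and 0.378 on day 3, and INPP5D to PLCG2 was higher on day 14 than on day 0 in 14 animals.

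PLCG2 splits a membrane lipid into the messengers that release calcium and activate protein kinase C. It ranged from 19.6 to 56.2 FPKM (median 38.1) on day 0, from 12.3 to 55.5 (median 38.0) on day 3 and from 12.9 to 29.2 (median 20.2) on day 14. The first 2 time points had nearly the same median, and 7 day 14 libraries lay below the day 0 range as deposited, but none after TMM scaling. PLCG2 was down-regulated on day 14 vs. day 0 by 0.46 ± 0.13 on the log2 scale, a fall of 27.2% (adjusted p = 0.00577, lower in 13 of 15 animals), and by 0.37 in the other 12 animals. With RNA integrity as a covariate the value was −0.41 and missed the threshold (adjusted p = 0.0611, and 0.109 with the replicate block as well). On day 14 vs. day 3 it had −0.37 ± 0.13 with an adjusted p = 0.0510, which just missed the threshold, and was called with the replicate block (adjusted p = 0.0276).

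INPP5D, the phosphatase that opposes the pathway, ranged from 8.93 to 30.8 FPKM (median 16.3) on day 0, from 6.35 to 43.7 (median 17.0) on day 3 and from 6.43 to 17.5 (median 9.42) on day 14. Its highest day 3 value, in animal 8, stood well above the next. That library, for which the study lists the lowest RNA integrity number, also held the highest deposited day 3 value of SYK, LYN, VAV1, VAV2, VAV3 and PLCG2. INPP5D was lower on day 14 than on day 3 by 0.41 ± 0.14 on the log2 scale (adjusted p = 0.0468, lower in 11 of 15 animals), and the call ended when any of animals 1, 2, 3, 4, 8, 9, 12, 13 or 14 was left out (adjusted p from 0.0576 to 0.121). In the animals other than 7, 11 and 15 the value was −0.55 (adjusted p = 0.0124). With RNA integrity as a covariate it was −0.36 and missed the threshold (adjusted p = 0.120, and 0.141 with the replicate block as well). Against day 0, day 14 had −0.22 ± 0.14 (adjusted p = 0.236). The ratio of INPP5D to PLCG2 had medians of 0.400, 0.499 and 0.508 on the 3 days and was higher on day 14 than on day 0 in 14 of 15 animals, with a mean log2 difference of 0.24 ± 0.30 (SD, n = 15). In the 12 animals other than 7, 11 and 15 this difference was 0.15, and the ratio was higher in 11 of them.

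The number of genes called depended on the model. A replicate block for the animal left the counts against day 0 at 1 of 9 on day 3, where 19.2% of all genes were called, and at 5 of 9 on day 14, where 43.99% were. Against day 3 it gave 4 of 9, where SYK, PLCG2 and VAV2 joined INPP5D on day 14 and 23.8% of all genes were called. Without TMM 9 of 9 were called lower on day 14 vs. day 0 (49.5% of all genes called, of which 84.3% were lower, against 47.9% of the calls with TMM) and 8 of 9 on day 14 vs. day 3 (38.4% of all genes called, of which 91.6% were lower, against 37.6% with TMM). The RNA integrity numbers were on average higher on the later days, and with them as a covariate only SYK and VAV3 were called on day 14 vs. day 0 (19.9% of all genes) and none on day 14 vs. day 3 (5.96% of all genes). For the genes that lost their call the log2 fold change went from −0.73 to −0.62 for LYN, from −0.46 to −0.41 for PLCG2 and from −0.375 to −0.382 for VAV1. With both the covariate and the replicate block VAV3 alone was called on day 14 vs. day 0, against 21.7% of all genes. Without animals 7, 11 and 15 the counts were 1 of 9 on day 3 vs. day 0 (5.87% of all genes), 5 of 9 on day 14 vs. day 0 (29.1%), with VAV2 in the place of VAV1, and 4 of 9 on day 14 vs. day 3 (20.02%).

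The markers of several cell types were called over the same days, and their counts stand beside 6.19% of all genes lower and 6.04% higher on day 3 vs. day 0. These shares were 17.3% and 18.8% for day 14 against day 0, and 5.002% and 8.32% between days 3 and 14. The counts of monocyte and T cell markers on day 14 vs. day 0 lay near or below their shares. Of 12 neutrophil markers, after TMM scaling, 6 were lower on day 3 and 11 on day 14 vs. day 0, and their summed FPKM ranged from 1756 to 34736 on day 0, from 673 to 7713 on day 3 and from 526 to 4115 on day 14. Of 10 monocyte markers, 4 were higher and none was lower on day 3 vs. day 0, and 1 was higher and 2 were lower on day 14 vs. day 0. Of 9 B cell markers, 4 were lower on day 14 vs. day 3, and their sum ranged from 59.8 to 953 on day 0, from 141 to 632 on day 3 and from 92.5 to 483 on day 14. All 10 erythroid markers and 7 of 9 NK cell markers were higher on day 14 vs. day 0, all 9 platelet markers on day 3 and 3 of them on day 14, 3 of 8 basophil and eosinophil markers on day 14, and 1 of 9 T cell markers on day 14. No marker was at 0 throughout a day. In the 12 animals other than 7, 11 and 15, 1 neutrophil marker was lower on day 3 and 8 were on day 14 vs. day 0, and 7 B cell markers were lower on day 14 vs. day 0, where 1 was in all 15 animals. There 1 of 8 basophil and eosinophil markers was higher on day 14 vs. day 0, while 7 NK cell and 10 erythroid markers still were. The part of these markers in the changes of the 9 genes was not tested.

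After the mean of each day was removed, the levels of the 9 genes across the 45 libraries followed different marker lists. With the mean of the neutrophil markers, Pearson's r was 0.83 for LYN, 0.81 for FGR, 0.74 for VAV3, 0.73 for FCER1G, 0.69 for VAV1, 0.68 for SYK and 0.47 for PLCG2, but 0.02 for INPP5D and −0.47 for VAV2. VAV2 followed the B cell markers with r = 0.92, where INPP5D had 0.38 and FCER1G −0.67. FCER1G and FGR had r = 0.74 with the monocyte markers. These values are descriptions: the points share animals, library scaling and depth, and animals 7, 11 and 15 lie at the end of the neutrophil range. In the 36 libraries of the other animals, r with the neutrophil markers was 0.75 for LYN, 0.70 for FGR, 0.59 for SYK, 0.55 for VAV1, 0.49 for VAV3, 0.48 for FCER1G, 0.35 for PLCG2, −0.12 for INPP5D and −0.24 for VAV2. With the B cell markers VAV2 had 0.84 there, INPP5D 0.55 and FCER1G −0.49. PLCG2 had 0.45 with the B cell markers there, above its value with the neutrophil markers, but 0.08 in all 45 libraries. With the monocyte markers FCER1G had 0.53 and FGR 0.65 in the 36 libraries.

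**Figure D4:**
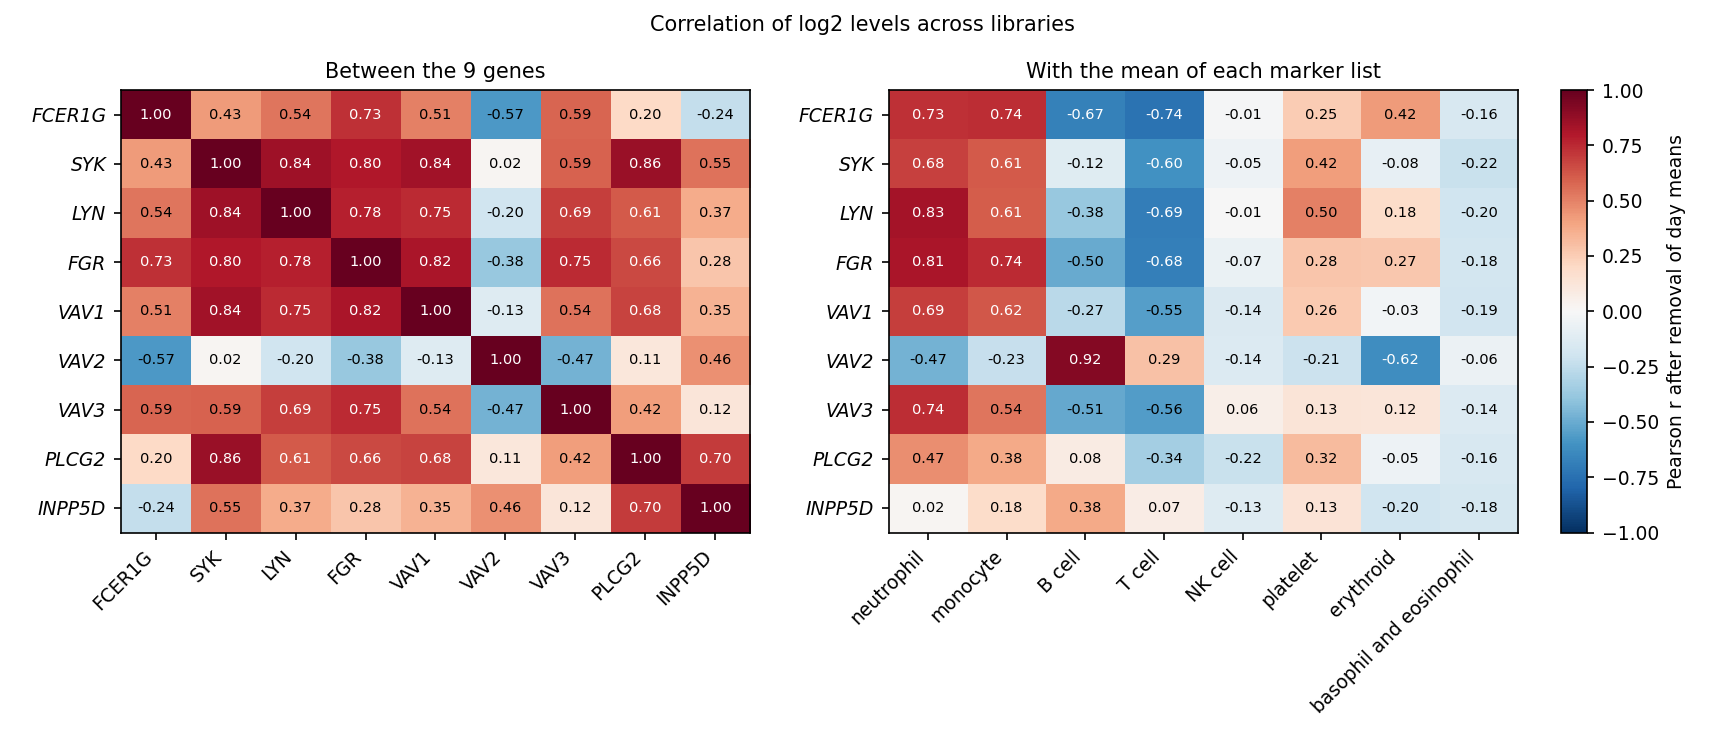
Pearson r of log2(TMM-scaled FPKM + 0.1) across 45 libraries after removal of day means, between the 9 genes (left) and with the mean of each marker list (right); red is positive and blue negative. SYK and PLCG2 had r = 0.86 and VAV2 had r = 0.92 with the B cell markers.

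**Figure D5:**
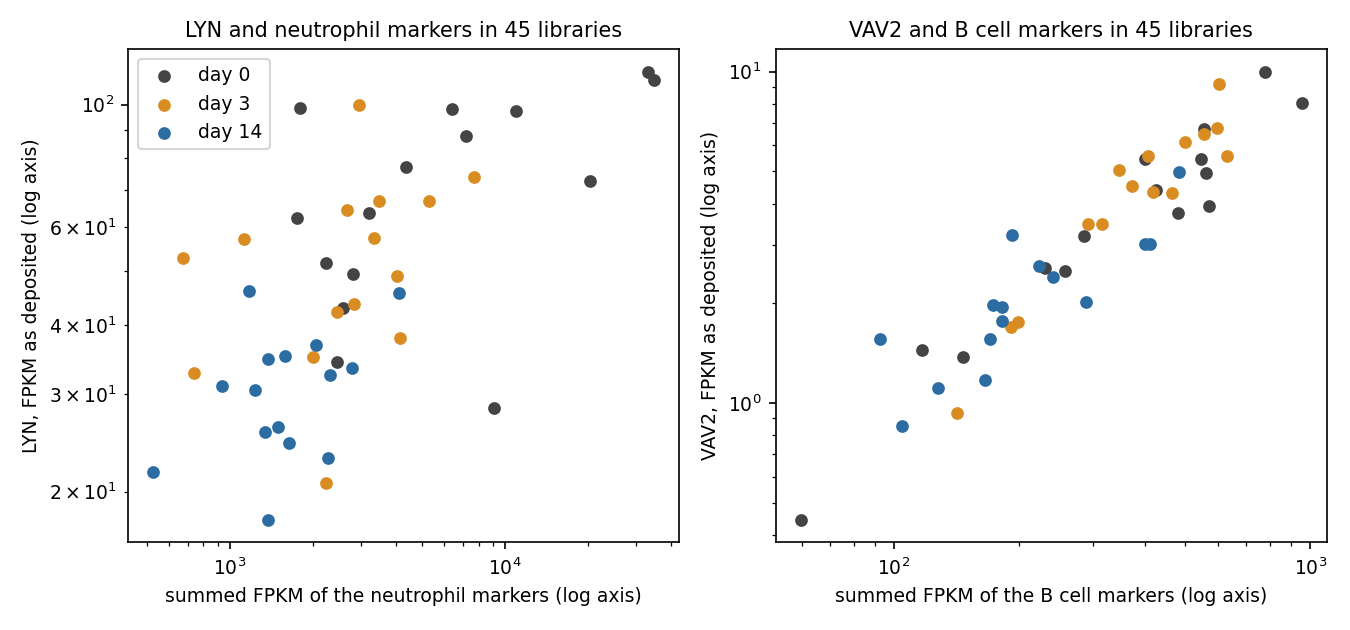
Left, LYN against the summed FPKM of 12 neutrophil markers; right, VAV2 against that of 9 B cell markers; both axes are logarithmic, each point is 1 of 45 libraries as deposited and colors mark the day. The day 14 libraries lie at 526 to 4115 FPKM of neutrophil markers, and the library with the lowest VAV2 (0.444 FPKM, animal 7 on day 0) also had the lowest B cell sum (59.8 FPKM).

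Between the 9 genes, r across the 45 libraries without removal of day means ran from −0.52 (FCER1G and VAV2) to 0.89 (SYK and PLCG2), with a median of 0.53 over the 36 pairs. SYK and LYN had r = 0.87 and SYK and VAV1 r = 0.86. Of the 6 pairs below 0, 5 held VAV2 and the other was FCER1G with INPP5D, at −0.20. In the 36 libraries without animals 7, 11 and 15, r ran from −0.36 to 0.87 with a median of 0.48, and the 4 pairs below 0 all held FCER1G.

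Among 8523 other tested genes with a mean of at least 5 FPKM, those most like each gene across the 45 libraries were named by their r. For FCER1G these were TYROBP (0.89), which encodes another signaling adaptor with the same kind of motif, LOC103234758 (0.86) and LOC103233913 (0.85), which a newer RefSeq annotation names C6H19orf38. For LYN they were the retinoic acid receptor gene RARA (0.97), the actin-regulating kinase gene LIMK2 and SBNO2 (both 0.95). VAV3 was most like LYST (0.98), a lysosomal trafficking gene, MCTP2 (0.95) and DCAF10 (0.94). VAV2 was most like BLK, CD22 and FCRL1 (all 0.91), each of them in the B cell marker list. For SYK the genes were GALNS (0.91), SH3BP5 and PITPNA (both 0.90), and for VAV1 TYK2 (0.92), ATP6V0D1 (0.91) and LRCH4 (0.90). FGR was most like ATP6V0D1 (0.90), LOC103229355 (0.89, JDP2 in the newer annotation) and the phagocyte myosin gene MYO1F (0.88), PLCG2 like PRKCB (0.89), DOCK2 (0.88) and PTPRJ (0.88), and INPP5D like SRRM2, UBA1 (both 0.93) and PI4KA (0.92). For the same pairs of genes r was 0.72 to 0.96 in the 36 libraries without animals 7, 11 and 15.

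The rest of the pathway was read from 8 lists with 107 genes, of which 102 were found by symbol and 101 were tested. Of these 101, 46 were called against day 0 on day 14, 37 of them lower and 9 higher, where 36.01% of all genes were called. Day 3 vs. day 0 gave 19 calls (14 lower and 5 higher) beside 12.2% of all genes, and 16 genes (12 lower and 4 higher) were called between days 3 and 14 beside 13.3% of all genes, so that neither the 16 nor the 19 is read as a result about the pathway. The median log2 fold change over the lists was −0.22 on day 14 vs. day 0, against −0.02 over all tested genes. Without TMM the day 14 count against day 0 was 77, of which 74 were lower and 3 higher, where 49.5% of all genes were called, so that most of the higher calls depended on the scaling. Without animals 7, 11 and 15 the counts were 34 against day 0 on day 14 (26 lower and 8 higher), 8 on day 3 and 29 for day 14 against day 3, beside 29.1%, 5.87% and 20.02% of all genes. Of the genes named in the following paragraphs, FCER1A, MS4A2 and ARPC5L were not called on day 14 vs. day 0 without TMM, with values still above 0, and FCAR, FCGR2B, FCER1A, MS4A2, PIK3CB, RHOG, WAS and VASP were not called without animals 7, 11 and 15, with the same sign as in all animals. Their values went from −1.53 to −0.91 for FCAR, from −0.53 to −0.40 for FCGR2B, from 0.84 to 0.69 for FCER1A, from 0.73 to 0.47 for MS4A2, from −0.55 to −0.36 for PIK3CB, from −0.47 to −0.28 for RHOG, from −0.57 to −0.48 for WAS and from −0.58 to −0.33 for VASP. Fewer of the 101 genes were called with RNA integrity as a covariate, and which of the named genes then kept their call is not given here. FCGR1A, FCGR3, FCGR3A, ARPC1A and ARPC1B were not found under these symbols and were not analysed here.

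The counts for the single lists stand beside 17.3% of all genes lower and 18.8% higher on day 14 vs. day 0. Of 7 receptor genes tested, 3 were lower and 2 higher. FCAR, the IgA receptor gene, fell from 75.5 ± 105 FPKM (SD, n = 15) to 10.2 ± 5.11 (log2 fold change −1.53 ± 0.54, adjusted p = 0.0220, lower in 11 of 15 animals). FCGR2A, an activating IgG receptor gene, fell by 1.43 and FCGR2B, the inhibitory one, by 0.53 on the log2 scale. In contrast FCER1A, the IgE-binding chain, rose from 23.6 ± 11.96 to 31.6 ± 15.1 FPKM (0.84 ± 0.27, adjusted p = 0.0128, higher in 14 of 15 animals), and MS4A2, the other chain of the IgE receptor, rose by 0.73. FCER1A and MS4A2 also stand in the basophil and eosinophil marker list.

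Next to the receptors, 8 of 15 adaptor genes were lower and none was higher on day 14 vs. day 0. DOK3, an adaptor that restrains receptor signaling, fell most, from 17.8 ± 11.04 to 4.05 ± 1.16 FPKM (−1.48 ± 0.28, adjusted p = 7.97e-05, lower in 14 of 15 animals). The scaffold GAB2 (−1.22), the ubiquitin ligase CBL (−1.12) and the SYK substrate LCP2 (−0.74) were also lower. Of 7 phosphatase genes 3 were lower, among them PTPRC, which encodes CD45, at −0.50 ± 0.11 (adjusted p = 5.29e-04), and which was also lower on day 3, at −0.57 ± 0.11 (adjusted p = 0.00139).

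Further downstream, 7 of 16 lipid enzyme genes were lower on day 14 vs. day 0 and 1 was higher. The lower ones held the catalytic PI3-kinase genes PIK3CB (−0.55), PIK3CD (−0.57) and PIK3CG (−0.60) and the regulatory gene PIK3R5, which fell by 0.66 ± 0.20 (adjusted p = 0.0104). The higher one was PIP5K1B, a phosphoinositide kinase gene, from 4.31 ± 1.36 to 9.16 ± 2.75 FPKM (1.495 ± 0.24, adjusted p = 1.05e-05, higher in 14 of 15 animals). Of 16 downstream protein kinase genes 7 were lower and 3 higher. LIMK2 fell from 31.6 ± 20.5 to 8.67 ± 3.34 FPKM (−1.26 ± 0.32, adjusted p = 0.00162), and AKT2 rose from 26.1 ± 5.37 to 46.4 ± 12.5 FPKM (1.24 ± 0.19, adjusted p = 3.72e-06, higher in 14 of 15 animals).

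In the list of GTPases and their partners, not all of them targets of the VAV proteins, 2 of 7 genes were called on day 14 vs. day 0, and both were lower. The GTPase genes RAC1 (0.03), RAC2 (−0.02), CDC42 (0.23) and RHOA (0.14) were not called. RHOG, a GTPase on which VAV proteins act, fell by 0.47 ± 0.18 (adjusted p = 0.0353, lower in 12 of 15 animals), and the exchange factor DOCK2 by 0.32. Of 22 actin machinery genes tested 6 were lower and 3 higher. MARCKS, a protein kinase C substrate that binds actin, fell from 6.65 ± 3.44 to 2.50 ± 1.03 FPKM (−0.91 ± 0.24, adjusted p = 0.00231), the actin nucleation promoter WAS by 0.57 and VASP by 0.58. Without animals 7, 11 and 15 the MARCKS value was −0.58 and still called (adjusted p = 0.0275). ARPC5L, a subunit of the actin-branching complex, rose by 0.54 ± 0.12 (adjusted p = 5.18e-04, higher in 14 of 15 animals).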

How the data were processed

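Whole-blood total RNA was measured by RNA sequencing in 45 libraries (15 animals on days 0, 3 and 14). Per the labels and the study's methods, the authors made stranded libraries with ribosomal and globin RNA removed, demultiplexed with bcl2fastq 2.17, aligned with STAR to Chlorocebus_sabeus 1.1 and counted fragments per gene with HTSeq, with no STAR or HTSeq version given in the sources used here. The deposited values are FPKM by the authors, with no scaling between libraries. The unit was read from the values: 100.0% of them were whole numbers of fragments, within 0.01 fragment, once gene length and library total were solved for.

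FPKM were divided by TMM factors (30% of M and 5% of A values trimmed), and log2(value + 0.1) was compared between days with limma 3.58.1 in R 4.3.3, with a mean for each day over all 45 libraries. Genes with more than 0.5 CPM in at least 3 libraries were tested. Fold changes are on the log2(value + 0.1) scale, which understates changes of low genes. Intervals are 95% intervals. The script was tested on simulated data.

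Labels give the same 15 animals on each day, which pairs the libraries. After removal of day means, libraries of the same animal had a mean r of 0.328 across genes, those of different animals −0.0382, and 41 of 45 same-animal pairs were above 0.1. The study states no block for its gene-wise test, so the block was an alternative. Other alternatives were FPKM without TMM, pseudocounts of 1 and 0.01, no filter, a mean of at least 1 FPKM, RNA integrity as a covariate, voom on the recovered fragments, an exact sign-flip test within animals and leaving out each animal. Leaving out animals 7, 11 and 15 together, and the correlations with marker lists, were chosen after seeing the data.

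The 9 genes, the lists and the rules were chosen with earlier results of these data known. Of the other pathway genes, the called gene with the largest change on day 14 vs. day 0 in each direction of each list is named by rule, and further genes named beside them were chosen after their values were seen. The list of other tyrosine kinase genes is not reported here on its own.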

Additional observations from a re-analysis of the deposited data

How the results depend on the processing

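Of the 9 genes, VAV3 kept its calls on day 3 and day 14 vs. day 0 under every alternative run, and LYN, SYK and PLCG2 kept theirs on day 14 vs. day 0 in all of them except those with RNA integrity, where SYK kept its call only without the replicate block. VAV1 also lost its call on day 14 vs. day 0 without the filter, in the sign-flip test and with RNA integrity. Percentages are the shares of all tested genes called under the same setting. The paired fit (replicate block) called 1, 5 and 4 genes on day 3 vs. day 0, day 14 vs. day 0 and day 14 vs. day 3, so it moved only the last count. The count on day 14 vs. day 0 (5, 36.01%) was 9 without TMM (49.5%), 2 with RNA integrity as a covariate (19.9%) and 1 with the covariate and the replicate block (21.7%). On day 14 vs. day 3 the count (1, 13.3%) was less stable: 8 without TMM (38.4%), 2 with a pseudocount of 1 (14.01%) or a mean of at least 1 FPKM (19.8%), 0 without the filter (4.87%) or with RNA integrity (5.96%, and 9.81% with the replicate block), 3 with voom (15.2%), 5 with the exact sign-flip test (23.1%), 4 without animals 7, 11 and 15 (20.02%), and 0 to 4 with each animal left out. Of the other pathway genes, the count on day 3 vs. day 0 of 101 tested (19) was 11 with RNA integrity (7.65%), 8 without animals 7, 11 and 15 (5.87%), and 11 (without animal 7) to 23 with each animal left out. On day 14 vs. day 0 (46) it was 77 without TMM, 27 with RNA integrity and 26 with the covariate and the replicate block. Under the settings whose shares are given above, on day 14 vs. day 3 (16) it was 67 without TMM, 8 without the filter, 4 with RNA integrity, 7 with the covariate and the replicate block, 30 with the sign-flip test, 29 without animals 7, 11 and 15, and 4 (without animal 8) to 22 with each animal left out.

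For the 9 genes, only log2 fold changes that were not called changed sign. Of the other pathway genes, the called BIN1 (0.33) and ARPC3 (0.35) on day 14 vs. day 0 had −0.09 and −0.08 without TMM, and ARPC3 (0.38) on day 14 vs. day 3 had −0.0053. Without animals 7, 11 and 15, day 3 vs. day 0 gave 0.19 for FCER1G, 0.11 for SYK, 0.39 for FGR, 0.15 for VAV1 and 0.14 for PLCG2, and day 14 vs. day 0 gave 0.16 for FCER1G and 0.0575 for FGR. With each animal left out, day 3 vs. day 0 ran from −0.10 to 0.13 for FGR and from −0.12 to 0.0305 for PLCG2, and day 14 vs. day 3 from −0.0734 to 0.0018 for FCER1G. FGR on day 3 vs. day 0 was 0.0209 with RNA integrity and the replicate block. The causes of these shifts were not tested. The thinnest values were those of VAV2, with as few as 61 fragments.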

Other observations

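After TMM scaling the spread between animals was widest on day 0 for 8 of the 9 genes, but in the deposited log2 values for only 3. The standard deviation of the TMM-scaled log2 level was smaller on day 14 than on day 0 for all 9 genes, against 7 of 9 in the deposited values, where VAV1 went from 0.38 to 0.46 and VAV3 from 0.40 to 0.45. On the TMM scale it went, for example, from 0.85 to 0.44 for FCER1G, from 0.78 to 0.26 for FGR, from 0.49 to 0.22 for SYK and from 0.55 to 0.21 for VAV1, and least for INPP5D, from 0.33 to 0.32. Over all tested genes 57.9% had a smaller standard deviation on day 14 than on day 0. Without animals 7, 11 and 15 it was smaller for 8 of the 9 genes and for 43.7% of all tested genes, and FCER1G then had 0.41 on day 0 and 0.48 on day 14. INPP5D was most variable on day 3, at 0.50, and FCER1G without these animals as well, at 0.51. These spreads were not compared by a test.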
